A study of Rattus norvegicus with 3 samples.

Results

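Calmodulin, the kinases it switches on and the small proteins that hold it were followed through 9 genes of the motor cortex: Calm2 and Calm3, Camk2a, Camk2b, Camk2d and Camk2g, Camk4, and the buffers Nrgn and Pcp4. The members were taken by gene symbol from tables of 30957 genes. Each symbol had a single gene ID. Levels are in FPKM, the number of fragments divided by gene length and by library size, and all 9 members had a mean of at least 1 FPKM, as did 13378 genes in all. The tissue was motor cortex of male rats of the outbred Sprague-Dawley stock that had received no treatment, 3 animals of a normal group listed as 32, 39 and 68. Their labels give a time of 8 weeks and do not say what the weeks count from. Each animal gave 1 mRNA library. With 1 group, the comparisons below are between genes within an animal, or between single animals without a test.

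Calmodulin is a small calcium sensor that changes shape when calcium enters a neuron and then binds and activates other proteins. CaMKII, the most studied of these at the excitatory synapse, is a multi-subunit kinase built from the products of Camk2a, Camk2b, Camk2d and Camk2g. It phosphorylates receptors and scaffolds during synaptic plasticity and can stay active after calcium has fallen. Camk4 encodes a nuclear kinase of the CREB pathway, while neurogranin (Nrgn) and Purkinje cell protein 4 (Pcp4) bind calmodulin through an IQ motif and set how much of it is free.

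The promoter windows of the CaMKII subunit genes are shown because these genes encode subunits of the same enzyme, and the levels of Camk2a and Camk2g differed by 560-, 619- and 952-fold in animals 32, 39 and 68. The sequences are RefSeq's on GRCr8, a later build than the Rnor_6.0 of the deposited tables, and run 5′ to 3′ on the gene's strand from 250 bases before to 50 bases after the annotated start. Capitals mark any match on either strand to GGGCGG (the GC box), CCAAT (the CCAAT box), TGACG (the core of the cyclic AMP response element) or TATAAA (the TATA box), with overlapping matches counted separately. The windows lie at chr18:56648930-56649229 on the plus strand for Camk2a, chr14:85147895-85148194 on the minus strand for Camk2b, chr2:217698301-217698600 on the plus strand for Camk2d and chr15:3553106-3553405 on the plus strand for Camk2g.
Camk2a: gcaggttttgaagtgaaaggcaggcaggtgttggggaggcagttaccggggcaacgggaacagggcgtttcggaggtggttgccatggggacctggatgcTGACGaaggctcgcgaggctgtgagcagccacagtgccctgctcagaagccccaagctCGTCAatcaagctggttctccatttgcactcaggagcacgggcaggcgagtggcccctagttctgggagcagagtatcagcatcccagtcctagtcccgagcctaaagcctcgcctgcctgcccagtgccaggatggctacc
Camk2b: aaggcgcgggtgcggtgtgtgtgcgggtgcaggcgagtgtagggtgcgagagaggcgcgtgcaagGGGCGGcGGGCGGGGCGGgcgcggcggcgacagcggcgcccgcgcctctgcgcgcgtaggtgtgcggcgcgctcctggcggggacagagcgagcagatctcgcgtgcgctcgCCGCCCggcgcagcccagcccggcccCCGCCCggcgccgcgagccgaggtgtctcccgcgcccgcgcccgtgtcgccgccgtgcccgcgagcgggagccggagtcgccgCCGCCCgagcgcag
Camk2d: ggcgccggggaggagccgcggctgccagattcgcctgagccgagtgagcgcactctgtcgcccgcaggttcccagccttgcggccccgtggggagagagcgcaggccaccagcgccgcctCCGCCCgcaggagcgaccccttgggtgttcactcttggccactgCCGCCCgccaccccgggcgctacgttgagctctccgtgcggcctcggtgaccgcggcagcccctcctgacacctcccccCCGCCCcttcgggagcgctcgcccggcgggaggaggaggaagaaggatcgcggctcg
Camk2g: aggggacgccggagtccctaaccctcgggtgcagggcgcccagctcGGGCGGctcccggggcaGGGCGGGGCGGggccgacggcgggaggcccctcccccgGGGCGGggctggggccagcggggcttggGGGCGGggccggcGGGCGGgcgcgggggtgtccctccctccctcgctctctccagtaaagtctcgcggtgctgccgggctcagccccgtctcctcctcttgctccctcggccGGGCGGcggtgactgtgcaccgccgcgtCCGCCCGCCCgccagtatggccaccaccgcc

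The Camk2a window held 2 matches to TGACG and 0 to GGGCGG. Its GC content was 61.3% and it held 12 CG dinucleotides. Windows of the other 3 subunits were richer in both: GC content was 81.3% for Camk2b, 74.7% for Camk2d and 80.0% for Camk2g, with 59, 36 and 37 CG dinucleotides and 6, 3 and 9 matches to GGGCGG. Over all 33469 RefSeq promoter windows of this length, the median GC content was 51.7% with 7 CG dinucleotides. A match to GGGCGG was present in 33.1% of all windows, TGACG in 21.2%, CCAAT in 37.5% and TATAAA in 14.2%. Among the remaining members, the Nrgn window had 57.7% GC, 14 CG dinucleotides, 2 matches to GGGCGG and 1 to CCAAT. Pcp4 had 53.3% GC and 7 CG dinucleotides, Camk4 had 45.7% GC and 0 CG dinucleotides, and each had 1 match to CCAAT. No member window matched TATAAA. Windows were matched for 7 of the 9 members.

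On Rnor_6.0 the deposited loci cover whole gene spans, introns included. Calm3 (ENSRNOG00000016770) spans chr1:78843080-78851719 on the minus strand and Nrgn (ENSRNOG00000010688) chr8:40015049-40023193 on the minus strand. The kinase genes are longer, with Camk2a (ENSRNOG00000018712) at chr18:56193978-56295869 and Camk2d (ENSRNOG00000011589) at chr2:230901126-231132039, both on the plus strand, and Camk2b (ENSRNOG00000052080) at chr14:86208901-86297652 on the minus strand. Camk2g (ENSRNOG00000009783) lies at chr15:3936786-3995915, Camk4 (ENSRNOG00000020478) at chr18:25749098-25965957 and Pcp4 (ENSRNOG00000001628) at chr11:36851038-36912229, all on the plus strand. Calm2 (ENSRNOG00000030871) is listed at chr15:65506874-65507968 on the minus strand, a span of 1095 bases against 8640 for Calm3. None of the 10 named genes flanking this Calm2 row (5 on each side) flank Calm2 in RefSeq's GRCr8 annotation: the row sits between LOC100361180 and Pcdh17, while RefSeq places Calm2 between Epcam and Ttc7a on another chromosome. For the other 8 members, 7 to 10 of 10 flanking genes were shared. Whether the listed row is the Calm2 gene or a copy of it was not tested. Every value, sum and test given for Calm2 is that of the listed row. Calmodulin genes encode the same protein and have close relatives in the genome, so how the counting divided their fragments is uncertain.

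The libraries held an inferred 15460924 to 17670986 fragments, and 12967 to 13550 genes reached 1 FPKM. Mitochondrial genes took 21.4 to 28.4% of summed FPKM. Markers of excitatory neurons were high, with the vesicular glutamate transporter gene Slc17a7 at 521, 537 and 495 FPKM in animals 32, 39 and 68, and the layer 5 markers Fezf2 and Crym were present at means of 13.9 ± 1.98 and 84.5 ± 10.1 FPKM (SD, n = 3). The libraries differed in other tissue markers. The summed FPKM of 10 choroid plexus markers was 60.9, 709 and 8218 in animals 32, 39 and 68, that of 8 oligodendrocyte markers was 3365, 5200 and 9095, and that of the 6 upper-layer markers found was 254, 183 and 85.7. Genes that every cell uses (Hprt1, Rpl8 and Rps6) are listed at 0 in all 3 libraries, so a value at or near 0 in these tables does not show absence.

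Calm3 and the listed Calm2 row were among the 66 most abundant of all genes by mean FPKM. Calm3 was the highest member, at 1032, 1177 and 916 FPKM in animals 32, 39 and 68 (mean 1041 ± 131, SD, n = 3; rank 21). The listed Calm2 row stood at 564, 511 and 381 FPKM (485 ± 94.4; rank 66). Calm3 exceeded the Calm2 row in all 3 animals, and their ranges did not overlap. The Calm3 to Calm2 ratio was 1.83, 2.30 and 2.41 (2.18 ± 0.308). In limma's moderated test of the within-animal log2 ratio, Calm2 lay below Calm3 by a log2 difference of -1.11 (SE 0.15, adjusted p = 2.83e-06, 3 of 3 animals). It was not shown to differ from Calm3 by more than 2-fold (adjusted p = 0.235).

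The calmodulin buffers differed in level and in spread. Nrgn, which releases calmodulin when calcium rises at the dendritic spine, was measured at 991, 918 and 530 FPKM in animals 32, 39 and 68 (813 ± 248; rank 30). It was close to Calm3 in animal 32 and well below it in animal 68. Pcp4, which speeds calcium exchange on calmodulin, was at 183, 194 and 178 FPKM (185 ± 8.15; rank 264), with the 3 animals close together. The Nrgn to Pcp4 ratio accordingly ran from 5.41 and 4.73 in animals 32 and 39 to 2.97 in animal 68. The summed buffers stood at 0.736, 0.659 and 0.546 of the summed Calm2 and Calm3 levels in animals 32, 39 and 68 (0.647 ± 0.0954). These are ratios of mRNA per length and not of protein. Nrgn lay below Calm3 by -0.40 (SE 0.17, limma adjusted p = 0.0303), a call that was lost without animal 39 (adjusted p = 0.130), without animal 68 (0.339), with no filter on low genes (0.0637) and without a mean-dependent prior variance (0.0796).

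**Figure D1:**
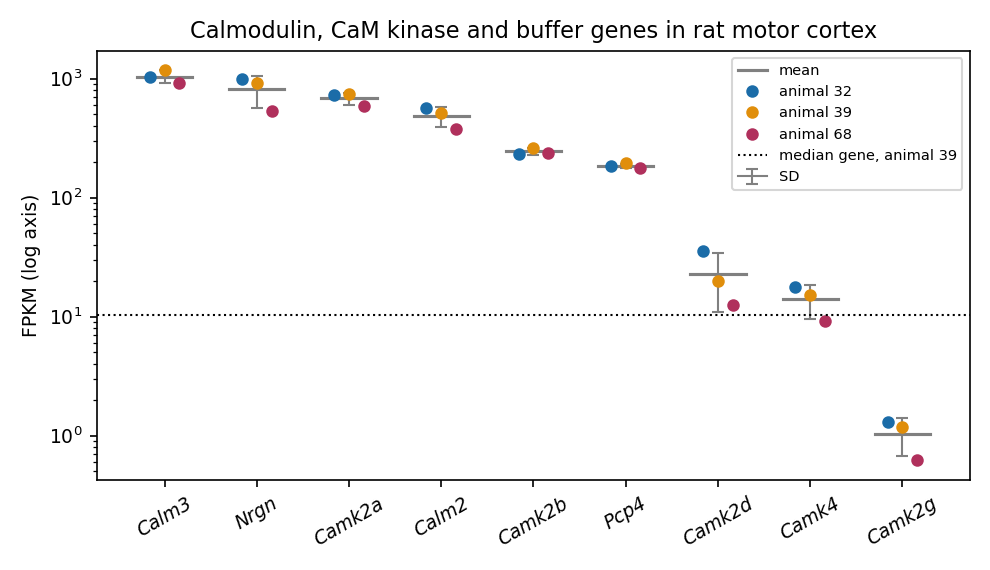
FPKM of each member (log axis) in animals 32, 39 and 68, with the mean as a bar and the SD as the error bar (n = 3); the dotted line is the median gene of animal 39 at 10.3 FPKM. Calm3, Nrgn, Camk2a and Calm2 stand highest, and Camk2g lies near 1 FPKM.

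Among the CaMKII subunits, Camk2a was the most abundant, at 725, 736 and 594 FPKM in animals 32, 39 and 68 (685 ± 79.3; rank 38). Camk2b, whose product also binds actin filaments, was at 232, 262 and 239 FPKM (244 ± 15.6; rank 166). Neither gene had a wide spread between animals. Camk2d, the delta subunit best known from the heart, was at 35.5, 19.9 and 12.6 FPKM (22.7 ± 11.7; rank 3537). It was highest in animal 32 and lowest in animal 68. Camk2g, the gamma subunit, was at 1.29, 1.19 and 0.623 FPKM (1.04 ± 0.361; rank 13310), which is 11.0 fragments per kilobase in the lowest library at the inferred depth.

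As a share of the summed CaMKII level, Camk2a made up 72.9, 72.2 and 70.2% in animals 32, 39 and 68 (71.8 ± 1.42%). Camk2b took 23.4, 25.7 and 28.2% (25.8 ± 2.43%), Camk2d 3.58, 1.95 and 1.49% (2.34 ± 1.09%), and Camk2g 0.130, 0.117 and 0.0737% (0.107 ± 0.0295%). The sum itself was 994, 1019 and 846 FPKM. The Camk2a to Camk2b ratio was 3.12, 2.81 and 2.48, while the Camk2b to Camk2d ratio ran from 6.54 through 13.2 to 18.9. In percentage points the share of Camk2b differed most between animals (SD 2.43). Relative to its own mean share, Camk2d differed most and Camk2a least.

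Relative to Camk2a within each animal, Camk2b was lower by a log2 difference of -1.48 (SE 0.11, limma adjusted p = 8.33e-06), Camk2d by -5.03 (SE 0.23, adjusted p = 5.86e-07) and Camk2g by -9.29 (SE 0.33, adjusted p = 1.35e-07), each in 3 of 3 animals. Relative to Camk2b, Camk2d was lower by -3.55 (SE 0.27, adjusted p = 7.40e-06).

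**Figure D2:**
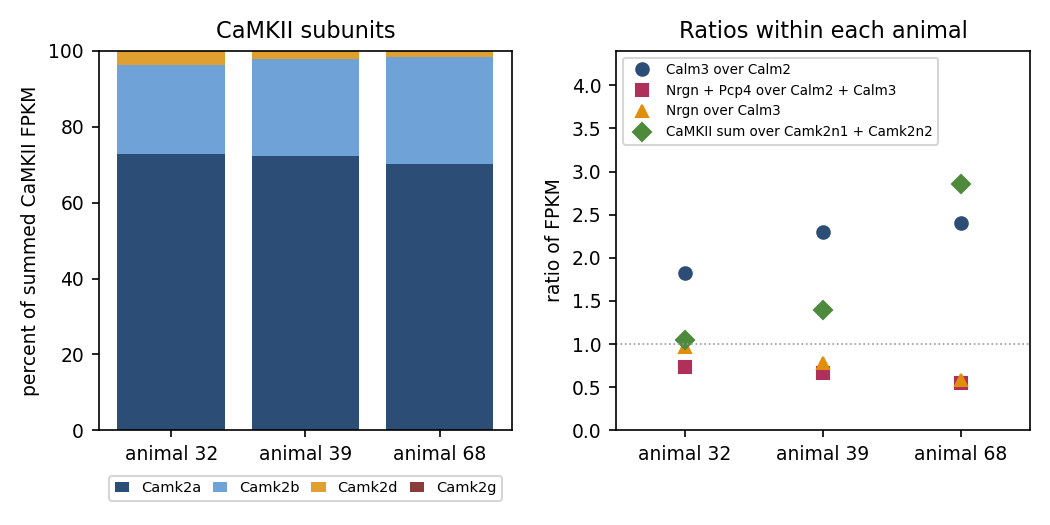
Left, each CaMKII gene as a percent of the summed CaMKII FPKM in animals 32, 39 and 68, as stacked bars from 0 to 100%; right, FPKM ratios within each animal, with the dotted line at a ratio of 1. Camk2a makes up 70.2 to 72.9% of each bar, and the ratio of summed CaMKII to the inhibitors Camk2n1 and Camk2n2 runs from 1.05 in animal 32 to 2.86 in animal 68; Camk2g is too small a share to be seen.

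Camk4, the nuclear kinase that phosphorylates CREB, was at 17.6, 15.2 and 9.14 FPKM in animals 32, 39 and 68 (14.0 ± 4.37; rank 5451), highest in animal 32 and lowest in animal 68. It lay below Camk2a by a log2 difference of -5.65 (SE 0.17, limma adjusted p = 6.68e-08). Its span overlaps an annotated U6 RNA gene that is listed at 0 in all 3 libraries.

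In order of mean level the members ran Calm3, Nrgn, Camk2a, Calm2, Camk2b, Pcp4, Camk2d, Camk4 and Camk2g. The ranges of Calm3 and Nrgn overlapped, as did those of Nrgn and Camk2a and those of Camk2d and Camk4. Nrgn exceeded Camk2a in 2 of 3 animals (log2 difference 0.20, SE 0.14, limma adjusted p = 0.206; 0.39 with adjusted p = 0.00911 without animal 68). Camk2d exceeded Camk4 in 3 of 3 animals. The other 5 neighbouring pairs did not overlap.

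Read against all genes tested, most of these calls are common. Every other member, 8 of 8, was lower than Calm3 at an adjusted p under 0.05, as were 99.8% of 13377 genes. Of the other members, 6 were lower than Camk2a, against 99.6% of all genes, and 1 (Calm3) was higher, against 0.202%. Set against Camk2b, 4 members were lower (98.3% of all genes) and 4 were higher (0.837% of all genes). The 4 higher ones were Calm3, Nrgn, Camk2a and Calm2. Camk2a lay below Calm3 by -0.60 (SE 0.15, limma adjusted p = 0.00104), and Calm2 below Camk2a by -0.51 (SE 0.11, adjusted p = 0.00269). Pcp4 was lower than Camk2b by -0.40 (SE 0.10, limma adjusted p = 0.00639; 0.0620 without animal 39). Since nearly every gene passes, the Benjamini-Hochberg adjustment leaves p almost as it was. Errors of gene length or mappability that all animals share are outside these p-values.

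Between animals, the members split into steady and variable genes. Pcp4 and Camk2b varied least, with an SD of log2 level over the 3 animals of 0.06 and 0.09, placing them at percentiles 10.4 and 19.1 of all genes past the filter. Camk2a and Calm3 were at 0.17 and 0.18, under the all-gene median of 0.20 and above the median of 0.15 for genes of similar level. Calm2 was at 0.30, Nrgn and Camk4 each at 0.49, Camk2g at 0.52 and Camk2d at 0.74 (percentile 93.9). The median SD of the members was 0.30, 5 of 9 lay above the all-gene median, and 7 of 9 lay above the median of genes of their own level, which was 0.40 for Camk2g.

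Animal 68 was lower than animal 32 for 8 of 9 members, all but Camk2b, while 42.9% of all genes were lower. The median log2 ratio of animal 68 over 32 was -0.57 over the members and 0.07 over all genes. Camk2d was the single member over 2-fold apart (2.80-fold lower), while 12.8% of all genes were over 2-fold apart and 3.05% were lower; under each of 3 other scalings Camk4 and Camk2g passed 2-fold too. At 1.5-fold, 4 members were lower in animal 68, namely Nrgn (1.87-fold), Camk2d, Camk4 (1.92-fold) and Camk2g (1.93-fold), against 7.94% of all genes lower past 1.5-fold. Animals 32 and 39 had 0 members over 2-fold apart (3.14% of all genes), as did animals 39 and 68 (6.14%). In bulk tissue, fewer cells of a type and less RNA per cell cannot be told apart.

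Tissue markers moved along with these differences. Of all genes, 9.77% were over 2-fold higher in animal 68 than in animal 32 and 3.05% over 2-fold lower. Between these animals, all 8 oligodendrocyte markers and all 10 choroid plexus markers were over 2-fold higher in animal 68. So were 7 of 9 striatal markers, whose sum was 142, 122 and 266 FPKM in animals 32, 39 and 68. Astrocyte markers summed to 991, 1085 and 1929 FPKM, with 5 of 8 over 2-fold higher in animal 68. Of the 6 upper-layer markers found, 3 were over 2-fold lower in animal 68, while the 6 excitatory neuron markers found summed to 817, 835 and 772 FPKM. Inhibitory neuron markers summed to 512, 462 and 319 FPKM, and layer 5 markers to 163, 199 and 219. The part of these markers in the members' differences was not tested.

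**Figure D3:**
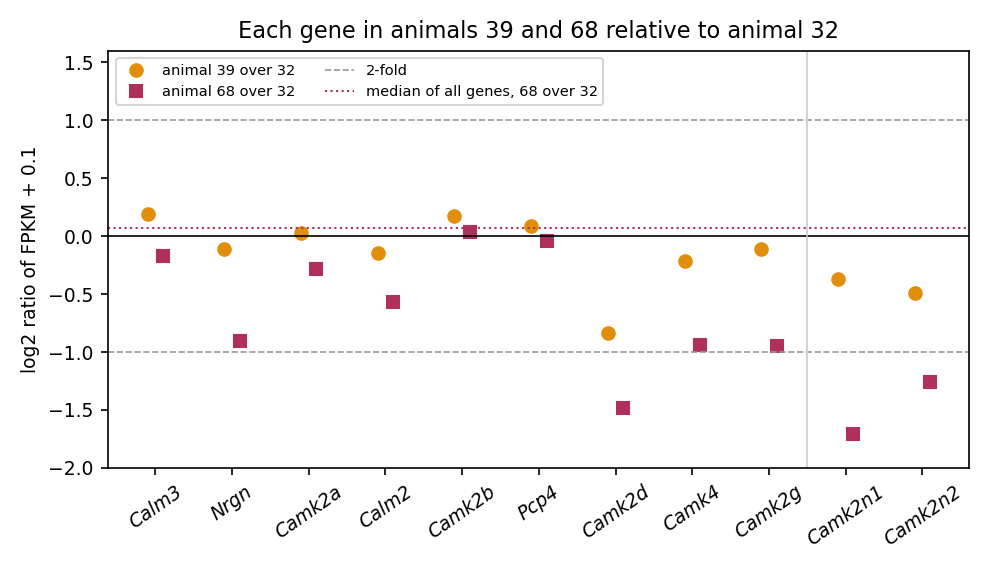
Log2 ratio of FPKM + 0.1 for animal 39 over 32 (circles) and animal 68 over 32 (squares), for the 9 members and, right of the grey line, the CaMKII inhibitor genes Camk2n1 and Camk2n2; dashed lines mark 2-fold and the dotted line the all-gene median of 0.07. Squares lie below 0 for 8 of 9 members, with Camk2d past 2-fold.

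The CaMKII inhibitors differed more between animals than Camk2a or Camk2b. Camk2n1, an endogenous CaMKII inhibitor, was at 901, 699 and 276 FPKM in animals 32, 39 and 68 (625 ± 319), a 3.26-fold difference between animals 32 and 68. Camk2n2, the related inhibitor, was at 46.6, 33.1 and 19.4 FPKM (2.40-fold). Both stood in the same order over the animals as Nrgn. The Camk2a to Camk2n1 ratio was 0.804, 1.05 and 2.15, and the summed CaMKII level was 1.05, 1.39 and 2.86 times that of the summed inhibitors. Camk2n1 was the 1 gene of the 15 in the list of CaM kinase activators, inhibitors and other CaM kinases whose level was not shown to differ from that of Camk2a; the other 14 were lower, as were 99.6% of all genes.

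Upstream of Camk4, the activating kinase Camkk2 was at 50.9, 43.4 and 25.3 FPKM (2.01-fold apart in animals 32 and 68), while Camkk1 was steadier at 85.4 ± 10.3 FPKM. Camkv, a kinase-like calmodulin-binding protein of the synapse, was at 118 ± 4.79 FPKM. Eef2k, the kinase that slows translation elongation, went the other way (6.18, 8.27 and 12.8 FPKM), as did Phkg1, a phosphorylase kinase subunit (2.17, 3.44 and 5.33 FPKM). In this list 3 of 15 genes were over 2-fold lower and 2 over 2-fold higher in animal 68 than in animal 32, against 3.05% and 9.77% of all genes. Its median log2 ratio was -0.28, beside 0.07 for all genes.

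Downstream, the CaMKII synaptic partners and substrates had a median log2 ratio of -0.41, with 10 of 13 lower in animal 68 against 42.9% of all genes. The vesicle protein gene Syn1 was at 239 ± 43.1 FPKM, the scaffold gene Dlg4 at 210 ± 36.3 and the AMPA receptor gene Gria2 at 126 ± 16.7. Stx1a, a syntaxin of the release machinery, was at 162, 127 and 52.5 FPKM and was over 2-fold lower in animal 68. Grin2a, which encodes an NMDA receptor subunit, was highest in animal 39 (6.96, 15.3 and 9.37 FPKM).

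The genes of the CaMKIV and CREB pathway had a median log2 ratio of 0.14. In animal 68, 5 of the 16 were lower than in animal 32, against 42.9% of all genes. The CREB coactivator Crtc1 was at 50.6 ± 4.17 FPKM, and the transcription factor Mef2d and the deacetylase Hdac5 at 42.0 ± 4.61 and 36.5 ± 2.74. Mef2c was the exception, at 43.6, 28.4 and 10.5 FPKM in animals 32, 39 and 68. It was the 1 gene of 16 over 2-fold apart in animals 32 and 68, beside 12.8% of all genes.

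Calcineurin is the calmodulin-activated phosphatase that opposes CaMKII at synapses. In animals 32 and 68, 0 of the 8 calcineurin genes past the filter were over 2-fold apart, beside 12.8% of all genes. Its catalytic subunit genes Ppp3ca and Ppp3cb were at 326 ± 19.4 and 215 ± 26.5 FPKM, the regulatory subunit gene Ppp3r1 at 220 ± 22.8 and the inhibitor gene Rcan2 at 38.5 ± 10.3. The median log2 ratio of animal 68 over 32 was -0.06. Ppp3ca was higher than Camk2b by the limma test, while Ppp3cb and Ppp3r1 were not shown to differ from it.

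Other calmodulin-binding buffers and cytoskeletal proteins had a median log2 ratio of -0.14 over 14 genes. Gap43, an IQ-motif protein of growing axons related to Nrgn, was at 198, 183 and 129 FPKM (170 ± 36.0), with the smallest value in animal 68. Sptan1 was at 175 ± 12.4, Basp1 at 157 ± 24.0 and Camta2 at 117 ± 7.98 FPKM. Pcp4l1, the relative of Pcp4, was at 16.1, 5.97 and 17.2 FPKM, lowest in animal 39, whereas Pcp4 was not.

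Among calmodulin-activated enzymes and pumps the median log2 ratio was -0.02 over 13 genes. The calcium pump gene Atp2b1 was at 145 ± 8.19 FPKM and Atp2b2 at 111, 84.8 and 52.4. The cyclase gene Adcy1 was highest in animal 39 (62.2, 99.5 and 41.0 FPKM), and the inositol trisphosphate kinase gene Itpka was at 61.4 ± 16.3. Atp2b2 and Adcy8 (5.48, 4.02 and 2.17 FPKM) were over 2-fold lower in animal 68 than in animal 32. Itpkb (5.80, 7.04 and 14.4) and Pde1c (0.624, 1.23 and 1.68) were over 2-fold higher. Thus 2 of 13 were lower and 2 higher, against 3.05% and 9.77% of all genes.

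Calcium-binding relatives of calmodulin went in opposite directions. Cabp1 was at 80.7, 65.2 and 34.7 FPKM in animals 32, 39 and 68 and Cabp7 at 22.7, 70.7 and 90.0. Caln1 was at 23.2 ± 3.20 FPKM. Calml4 was at 1.01, 7.07 and 24.4 FPKM. The summed choroid plexus markers stood in that order, as did, among others, the summed oligodendrocyte, astrocyte, microglia, ependyma and layer 5 markers. Calml3, Calml5 and Cabp5 are listed at 0 in all libraries.

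The other EF-hand sensors and buffers, which bind calcium without the CaM kinases as main targets, had a median log2 ratio of -0.28 over 14 genes, 4 over 2-fold lower and 1 over 2-fold higher in animal 68 than in animal 32 (3.05% and 9.77% of all genes). Vsnl1 was at 387, 321 and 192 FPKM, Pvalb at 149, 110 and 72.2, Calb1 at 72.8, 43.0 and 21.0, and Kcnip1 at 7.56, 5.76 and 3.51. Kcnip2 went the other way (11.2, 24.3 and 26.2 FPKM). Ncald was lowest in animal 39 (83.6, 30.8 and 73.6 FPKM). Hpca at 657 ± 178 and S100b at 583 ± 188 FPKM were the 2 genes of the list not shown to differ from Camk2a. Both were highest in animal 68, with Hpca at 456, 720 and 796 FPKM and S100b at 501, 450 and 798. Of the 14 genes, 10 were lower in animal 68 than in animal 32, against 42.9% of all genes. Hpcal4 was at 150 ± 25.7 FPKM.

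**Figure D4:**
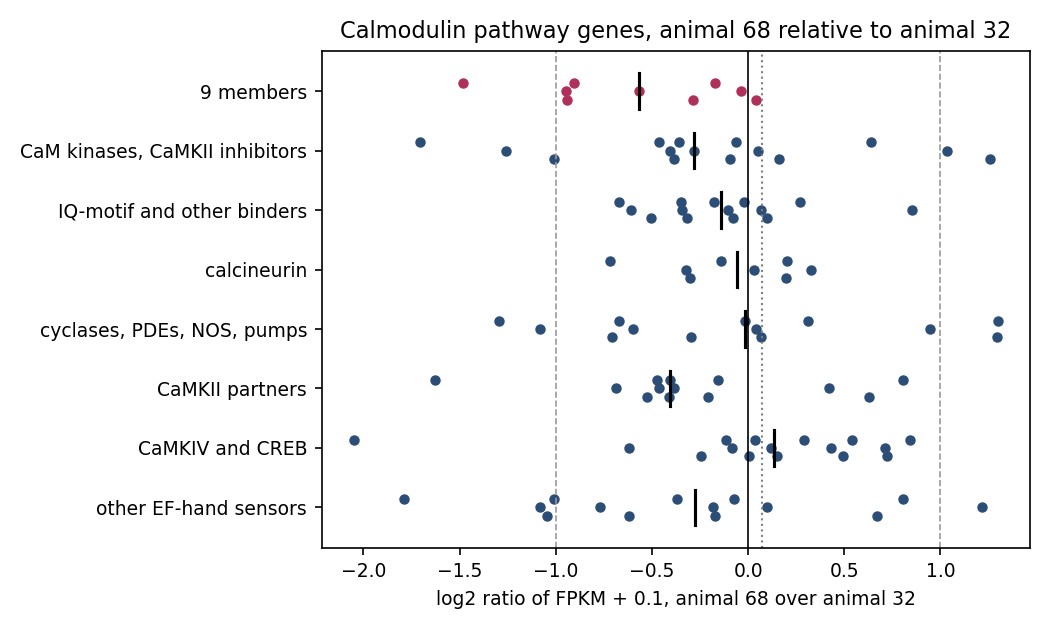
Log2 ratio of FPKM + 0.1 in animal 68 over animal 32 for the members and each pathway list, 1 point per gene past the filter; black ticks are medians, dashed lines 2-fold and the dotted line the all-gene median. The members have the lowest median (-0.57) and the CREB pathway list the highest (0.14), beside 0.07 for all genes.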

How the data were processed

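Purified total RNA was enriched for mRNA before library construction, per the labels' protocols. The strand setting and the annotation used are not given in those sources. The submitters' processing notes name the tools HISAT2 2.0.4 and StringTie 1.3.0 and the build Rnor_6.0. The authors counted fragments per gene and deposited normalized FPKM values, per the labels. FPKM is not a count, so no count test was run. Depth was inferred as 16550241, 15460924 and 17670986 fragments in animals 32, 39 and 68, since 82.2 to 86.6% of genes with spans up to 400 bases then lay within 0.02 of a whole fragment. It covers counting error only. No value above 0 was equal in 2 libraries.

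Levels are means ± SD over 3 animals. Within-animal ratios to Calm3, Camk2a or Camk2b, as log2((FPKM + 0.1)/(reference + 0.1)), were tested two-sided with limma 3.58.1 in R 4.3.3 over the 13377 other genes averaging 1 FPKM or more (eBayes with trend, Benjamini-Hochberg over all, threshold 0.05). The pseudocount of 0.1 understates the differences of low genes. SEs and p-values combine each gene's own spread between these animals with a mean-dependent prior variance taken from all genes tested. The prior carried 12.7 degrees of freedom for ratios to Calm3. For genes with widely varying ratios, such as Camk2d, the SE given is thus smaller than their own spread alone would give. The p-values cover no error beyond that spread. The fit was tested on simulated data. Comparisons between animals used 1 library each and no test.

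Named genes are the members and, per pathway list, the 4 highest, those over 2-fold apart between animals and those listed at 0, with the genes nearest in level to Camk2a, Nrgn and Pcp4 and those described as calmodulin-related at 10 FPKM or more. Genes under 1 FPKM and some named by the rule are not reported here, though counts include them. The members and lists were chosen with earlier results of these data known. Alternatives were other pseudocounts, filters, scalings, folds and variance priors, and leaving out each animal. Other steps used pandas 2.3.3, numpy 2.4.6 and matplotlib 3.10.9 under Python 3.11.15.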

Additional observations from a re-analysis of the deposited data

How the results depend on the processing

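Of the 24 ratios of members to a reference, 251 recomputed values kept their direction and side of the threshold, 12 lost the threshold, 1 gained it and 0 reversed. Apart from the losses of Nrgn against Calm3 and of Pcp4 against Camk2b given above, the losses came from testing against a bound of 2-fold, which asks for a larger difference. All 54 recomputed levels moved by less than 1 SD. Leaving out 1 of 3 animals cannot move a mean by 1 SD, so that part of the count was fixed in advance. The scalings keep the overall level of the libraries. The count therefore says little about how stable the levels are. The count of members over 2-fold apart in animals 32 and 68, 1 as deposited, was 3 with totals made equal without mitochondrial genes, 3 with median-of-ratios scaling, 3 with quantile normalization (Camk2d, Camk4 and Camk2g each time) and 4 at 1.5-fold. Of all genes, 12.3%, 12.3% and 11.7% were over 2-fold apart under those 3 scalings, and 27.3% were over 1.5-fold apart as deposited. For animals 32 and 39 the count was 0, and 1 at 1.5-fold (10.3% of all genes). For animals 39 and 68 the count was 0, 1 (Camk2g) with quantile normalization (6.11% of all genes) and 4 at 1.5-fold (18.6%). Beyond the fold itself, the cause was not tested. Members lower in animal 68 than in animal 32 numbered 8 as deposited and with quantile normalization, and 9 with the other 2 scalings.

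Quantile normalization moved the median log2 ratio of all genes in animal 68 over 32 from 0.07 to -0.05, and changed the genes over 2-fold higher and lower from 1307 and 408 to 898 and 661. With 1 group there was no fit with a replicate block between groups, and the gene ratios were taken within each animal. Depth limits Camk2g most, and 3 animals limit every error given.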

Other observations

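The genes closest in level to Camk2a over the 3 animals, by the root mean square difference of log2(FPKM + 0.1), were Uchl1 (0.06), a neuronal ubiquitin hydrolase gene, Ckb (0.11), brain creatine kinase, and Cfl1 (0.11), the actin-severing cofilin. For Nrgn they were Thy1 (0.22), a neuronal surface glycoprotein gene, Snap25 (0.27), a component of the vesicle fusion machinery, and Aldoa (0.33), a glycolytic enzyme gene. Snap25 was at 1206, 971 and 685 FPKM in animals 32, 39 and 68, and Thy1 at 874, 756 and 604. For Pcp4 they were LOC100360117, the ribosomal protein gene Rpl5 and the translation factor gene Eif5a, each at 0.06.

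Among other genes described as calmodulin-related, the striatins Strn4 and Strn, scaffolds of a phosphatase complex, and the microtubule minus-end proteins Camsap1 and Camsap2 each had a mean above 10 FPKM.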
